A study of Homo sapiens with 12 samples.

Results

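The 10 genes described here were NFE2L2, which encodes the transcription factor NRF2, and 9 genes known as NRF2 targets (NQO1, HMOX1, GCLC, GCLM, SLC7A11, TXNRD1, SRXN1, AKR1C1 and AKR1B1). They were taken by gene name from the 60504 genes of each deposited table, and each name matched 1 entry. RNA-seq was performed in 12 libraries of T24 cells, a long-established line from a human bladder carcinoma. In the knockout comparison, 2 libraries labelled U11 knockout were set against 2 libraries of untreated T24 cells. In the overexpression comparison, 6 libraries labelled U11 overexpression were set against 2 other libraries of untreated T24 cells. U11 is a small nuclear RNA of the minor spliceosome, encoded by RNU11. Per the study's methods, the knockout was made with CRISPR/Cas9 from the plasmid pX330 with a pair of guide RNAs, the overexpression with the plasmid pcDNA-U11, and both went through selection of monoclonal lines, so that each may stand for single clones. The overexpression libraries carried the line labels 79, 86 and 87 with 2 libraries each (numbers 1 and 3), and what these labels stand for was not given in the sources used here. By the library series assigned to each library, the whole knockout comparison was in 1 series (R18051). The overexpression comparison was split over the series R17018 and R18019, each with 1 control and 1 library of every line label. The titles of the R17018 libraries carry that number, but those of the R18019 libraries and of the knockout controls carry no series number. No source said whether the libraries of a group came from separate cultures, so every P-value measured only the spread between these libraries, which may be technical.

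NRF2 is held at a low level by KEAP1, an adaptor of a CUL3 ubiquitin ligase. Oxidants and electrophiles that modify KEAP1 let NRF2 accumulate, enter the nucleus, pair with a small MAF protein and bind the antioxidant response element of its target genes. These genes serve glutathione synthesis, the thioredoxin system, quinone and heme metabolism and the supply of NADPH, and NRF2 is often active in bladder cancer and other carcinomas. BACH1 competes at the same elements and is a strong repressor of HMOX1.

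The core of the antioxidant response element is commonly written TGACNNNGC, where N is any base. It was searched on both strands in the 1000 bases before each of 35116 human start sites of RefSeq (GRCh38.p14), read from hg38, and 31.9% of all start sites held at least 1 match. Of the 10 genes, 8 were matched in that table (all but HMOX1 and SLC7A11), with 11 start sites, and 45.5% of these held a match. In the last 250 bases before the start site the shares were 27.3% for these genes and 10.9% for all start sites. All matches found for these genes are shown. They are written 5′ to 3′ on the gene's strand with 10 bases on each side, and capitals mark the 9 bases of the match.
NQO1, chr16:69726997-69727025, minus strand, match beginning 455 bases before the start site: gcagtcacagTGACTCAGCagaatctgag
GCLM, chr1:93909446-93909474, minus strand, 34 bases before, on the opposite strand: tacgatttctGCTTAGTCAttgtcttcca
GCLC, chr6:53545953-53545981, minus strand, 870 bases before, on the opposite strand: acaggtcattGCTCTGTCAacacatattt
TXNRD1, upstream start site, chr12:104215670-104215698, plus strand, 99 bases before: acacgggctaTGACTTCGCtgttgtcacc
TXNRD1, downstream start site, chr12:104286920-104286948, plus strand, 102 bases before, on the opposite strand: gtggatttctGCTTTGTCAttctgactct
The NQO1 match had the letters TGACTCAGC, a form found on either strand before 500 of the 35116 start sites (1.42%). The other matches shown had other letters in the middle. The windows of NFE2L2, SRXN1, AKR1B1 and AKR1C1 held no match to TGACNNNGC. A match is a description of the sequence, and binding was not measured.

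Expression is given as TPM, Stringtie's transcript abundance per length, scaled to 1 fixed total per library. The libraries held 9.07 to 15.3 aligned gigabases, estimated from coverage and FPKM. The comparisons differed in makeup: protein-coding genes held 43.99% to 47.1% of TPM in the libraries of the knockout comparison, but 94.2% to 94.9% in those of the overexpression comparison, so TPM levels are not compared between them below except where stated. Genes listed as markers of T24 were present in every library, both keratins (KRT7 1085 to 6703 TPM, KRT8 367 to 1458 TPM) and VIM (1259 to 2887 TPM). The summed TPM of 10 markers of blood, endothelial, muscle and liver cells was 1.84 to 12.7. U11, summed over its entries, had 21.4 and 23.8 TPM in the controls of the knockout comparison and 31.6 and 37.4 TPM under the knockout label. The difference of 11.9 TPM gave p = 0.333 in an exact permutation test (two-sided), the smallest that this size allows. In TPM both values under the knockout label lay above both controls, opposite to the label, but a test at its floor cannot settle a direction. By quantitative PCR, the paper reports a significant decrease of U11 in its knockout line and a significant increase in its overexpressing line. Why TPM and quantitative PCR differ for the knockout was not tested. The wording labelled U11 knockout is therefore kept throughout. Line label 87 had 61.9 and 53.6 TPM of U11, line label 86 had 3.98 and 3.72, line label 79 had 0.183 and 0.412, and their controls had 0.0334 and 0.623. Over the 6 overexpression libraries against 2 controls the exact permutation test gave p = 0.393, where 0.0357 was the smallest possible. In the knockout comparison 1 entry of RNU11 had 0.0 TPM under the label and in the controls. The other entry held all of U11 there, with means of 34.5 and 22.6 TPM. In the overexpression libraries the first of these entries held most of it, 20.0 of 20.6 TPM on average, so the counted entry differed between the comparisons.

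In all 12 libraries 9 of the 10 genes were expressed. AKR1C1, an aldo-keto reductase of steroid and aldehyde metabolism, stood between 0.0896 and 0.873 TPM, did not reach 1 TPM in any library and was not tested. Its span (chromosome 10, 4963253 to 5107522, plus strand) overlaps the related gene AKR1C3 on the same strand, so even this level is uncertain. In the controls of the overexpression comparison the order of the mean TPM was NQO1 (368 ± 0.736, SD, n = 2), TXNRD1 (361 ± 167), AKR1B1 (152 ± 16.8), SRXN1 (111 ± 1.18), NFE2L2 (65.6 ± 1.62), GCLM (38.9 ± 0.748), SLC7A11 (32.3 ± 0.665), HMOX1 (26.2 ± 0.587) and GCLC (14.8 ± 1.62). In that order NQO1 and TXNRD1 overlapped, since TXNRD1 had 243 and 479 TPM, and the other neighbours did not. The order differed in the controls of the knockout comparison, where TXNRD1 (209 ± 111) stood above NQO1 (177 ± 8.99) with overlap, SRXN1 (48.4 ± 1.58) above AKR1B1 (44.6 ± 1.11), and HMOX1 (18.4 ± 0.198) above GCLM (15.1 ± 2.46) and SLC7A11 (8.87 ± 1.44). Among the genes with at least 1 TPM, NQO1 was between percentiles 95.7 and 98.4 across the libraries, TXNRD1 between 94.3 and 98.7, and GCLC between 36.7 and 47.8. After the protein-coding genes were rescaled to the same total, the controls of the overexpression comparison were 0.668 (HMOX1) to 1.71 (SLC7A11) times those of the knockout comparison over the 9 genes. This is a description without a test, and the library series cannot be told apart from the comparison.

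**Figure D1:**
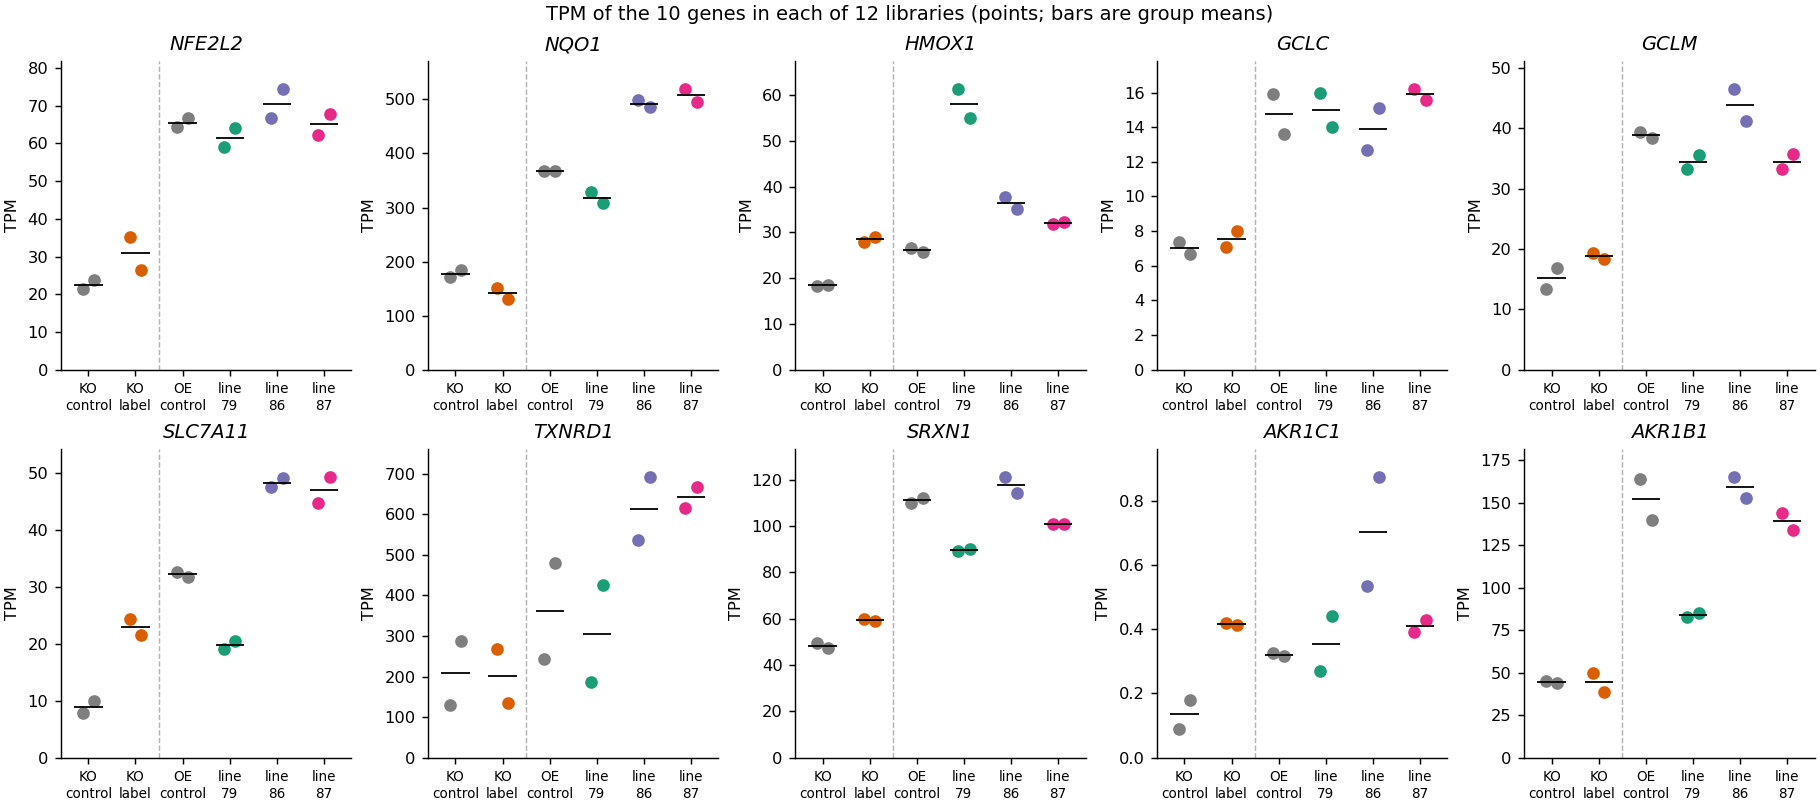
TPM of each of the 10 genes in every library. Points are libraries, horizontal bars are group means of 2 libraries, the dashed line separates the knockout comparison (KO) from the overexpression comparison (OE), and each vertical axis starts at 0. HMOX1 was highest in the line label 79 libraries (61.3 and 54.9 TPM), where SLC7A11 (19.1 and 20.6 TPM) and AKR1B1 (82.8 and 84.9 TPM) were lowest within the overexpression comparison.

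The knockout comparison asked which genes change when U11 is targeted. SLC7A11 and HMOX1 were up-regulated under the knockout label, and none of the 9 genes tested was down-regulated. A gene counted as called by the study's own thresholds, that is, with a fold change of at least 1.5 and P under 0.05 before adjustment (limma on log2(TPM + 1)). Of all 14356 genes tested, 8.61% were called up and 3.15% down, against 2 and 0 of the 9 genes. With a Benjamini-Hochberg adjusted P under 0.05 the same 2 genes passed, against 7.82% of all genes. The median log2 fold change of the 9 genes was 0.29, beside 0.108 over all genes. That median of all genes was -0.019 with median ratio scaling, where 769 genes were called up and 778 down in place of 1236 and 452.

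SLC7A11, the cystine and glutamate exchanger that brings in cystine, a source of cysteine for glutathione, had 7.85 and 9.89 TPM in the controls. It had 24.3 and 21.6 TPM under the knockout label. Both values lay above both controls, by a mean ratio of 2.59. The log2 fold change was 1.29 (standard error 0.15, adjusted P = 0.021, limma), and SLC7A11 was called in all 13 alternatives, at 1.14 to 1.44 (adjusted P 0.00265 to 0.174). The gene is on the minus strand of chromosome 4 (hg38, 138164097 to 138242349). HMOX1, heme oxygenase 1, which breaks down heme to biliverdin, iron and carbon monoxide, had 18.3 and 18.6 TPM in the controls and 27.9 and 29.0 TPM under the label. The groups did not overlap, and the log2 fold change was 0.60 (standard error 0.10, adjusted P = 0.0366, limma). This was just past the fold change threshold. HMOX1 (chromosome 22, 35380361 to 35394214, plus strand) was called in 8 of 13 alternatives and fell below the fold change threshold with median ratio scaling (0.45), quantile normalization (0.50), FPKM (0.49), protein-coding genes rescaled (0.57) and without the second library labelled U11 knockout (0.57).

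The other 7 genes tested in the knockout comparison were not called. NQO1 (chromosome 16, 69706996 to 69726951, minus strand), a quinone reductase widely used as a readout of NRF2 activity, had 171 and 184 TPM in the controls and 151 and 131 TPM under the knockout label. These groups did not overlap either, and the log2 fold change was -0.33 (standard error 0.10, adjusted P = 0.118, limma), opposite in sign to SLC7A11 and HMOX1. It stayed between -0.48 and -0.23 in all 13 alternatives and was not called in any. SRXN1 (chromosome 20, 646615 to 653370, minus strand), sulfiredoxin, which repairs over-oxidized peroxiredoxins, had 49.5 and 47.3 TPM in the controls and 59.8 and 58.8 TPM under the label, a log2 fold change of 0.29 (adjusted P = 0.112). NFE2L2 itself had 21.3 and 23.8 TPM in the controls and 35.3 and 26.4 TPM under the label. Its log2 fold change was 0.42 (standard error 0.17, adjusted P = 0.174, limma), and it rested on the library with 35.3 TPM: without the second library labelled U11 knockout it was 0.63 and was called on the unadjusted P. The span of NFE2L2 (chromosome 2, 177227595 to 177392697, minus strand) meets AGPS on the opposite strand (23.8 to 40.2 TPM), and the strand setting of the counting was not given in the sources used here.

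The subunits of glutamate-cysteine ligase, the rate-limiting enzyme of glutathione synthesis, showed small differences. The modifier subunit GCLM (chromosome 1, 93885205 to 93909456, minus strand) had 13.4 and 16.9 TPM in the controls and 19.3 and 18.4 TPM under the knockout label, a log2 fold change of 0.31 (adjusted P = 0.226, limma). The catalytic subunit GCLC (chromosome 6, 53497341 to 53616970, minus strand) had 7.39 and 6.66 TPM against 7.10 and 8.03 TPM, with overlap between the groups, and its log2 fold change of 0.09 turned to -0.04 with median ratio scaling. AKR1B1, aldose reductase, had 45.4 and 43.8 TPM in the controls and 50.0 and 38.7 TPM under the label, a log2 fold change of -0.02 with a 95% interval from -0.40 to 0.36.

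TXNRD1, thioredoxin reductase 1, was the one gene of the set with a large spread inside groups. It had 130 and 288 TPM in the controls of the knockout comparison and 268 and 134 TPM under the label. It had 243 and 479 TPM in the overexpression controls and 186 and 426 TPM under line label 79. Within each of these 4 groups the higher library held 1.97 to 2.29 times the lower one. For the other 8 genes tested that ratio was at most 1.34 in any group. In the overexpression comparison the library of series R18019 was the higher one in every group, also under line labels 86 (536 and 691 TPM) and 87 (616 and 668 TPM). The knockout comparison was in 1 series. TXNRD1 (chromosome 12, 104215779 to 104350305, plus strand) spans the pseudogene RPL18AP3 on the same strand, which was listed at 111 to 243 TPM, so the split of reads between them is uncertain, and its part in the spread was not tested. The log2 fold change of TXNRD1 in the knockout comparison was -0.03 with a standard error of 0.49. Its 95% interval ran from -1.30 to 1.24.

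**Figure D2:**
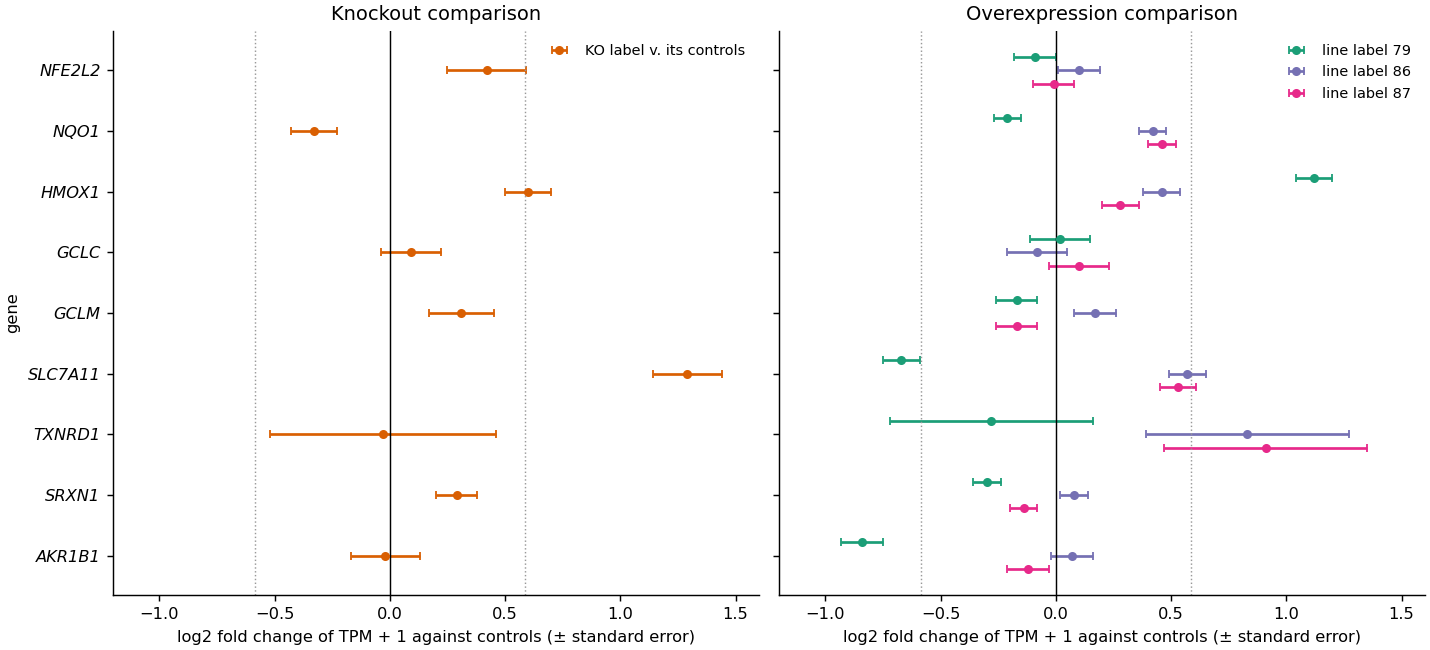
Log2 fold change of TPM + 1 (horizontal axis) of the 9 genes tested, with standard errors as bars. The knockout label is on the left and each line label against its 2 controls on the right, and dotted lines mark a fold change of 1.5. The bars of TXNRD1 are the widest (0.49 and 0.44), and line label 79 lies on the other side of 0 from line labels 86 and 87 for NQO1 and SLC7A11.

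The overexpression comparison asked which genes respond to more U11. With all 6 libraries taken as 1 group, HMOX1 was called up and none of the 9 genes was called down. Over all 15768 genes tested, 0.767% were called up and 1.16% down. After adjustment none of the 9 genes passed, by limma, while 0.171% of all genes did. At an unadjusted P under 0.05 without a fold change threshold, HMOX1 was the 1 of the 9 genes, beside 946 of all 15768 genes. HMOX1 had 26.6 and 25.8 TPM in the controls and, in the overexpression libraries, 31.8 TPM at the lowest and 61.3 TPM at the highest. All 6 libraries lay above both controls, and the log2 fold change was 0.62 (standard error 0.25, adjusted P = 0.809, limma). Without line label 79 it was 0.37 and was not called. It was also no longer called without 1 of the line label 79 libraries (0.50 without number 1, 0.53 without number 3) or without 1 of the controls (0.64 and 0.60). With the library series as a term, with the mean of each line label, or with no filter, the fold change stayed at 0.62 and HMOX1 was not called either.
For the other genes tested, the 6 libraries reached to both sides of the controls. NQO1 ranged from 309 to 519 TPM, SLC7A11 from 19.1 to 49.3 TPM, AKR1B1 from 82.8 to 165 TPM and TXNRD1 from 186 to 691 TPM over the 6 libraries, and each of these ranges held the controls inside it. Part of the TXNRD1 range lay within line label 79, at 186 and 426 TPM. The median log2 fold change of the 9 genes was 0.01, beside -0.017 over all genes.

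The line labels were therefore compared in 1 fit over the 8 libraries, in which each was set against the same 2 controls. Line label 79, where U11 lay within the range of the controls, showed HMOX1 up-regulated and SLC7A11 and AKR1B1 down-regulated. Of all genes, 2.43% were called up and 5.52% down under this label, against 1 and 2 of the 9 genes. With an adjusted P under 0.05 there were 4 of the 9, against 9.91% of all genes. HMOX1 had 61.3 and 54.9 TPM against 26.6 and 25.8 TPM in the controls, a mean ratio of 2.22 (log2 fold change 1.12, standard error 0.08, adjusted P = 0.000982, limma). SLC7A11 had 19.1 and 20.6 TPM against 32.7 and 31.8 TPM, a ratio of 0.616 (log2 fold change -0.67, adjusted P = 0.00546). AKR1B1 (chromosome 7, 134442350 to 134459284, minus strand) had 82.8 and 84.9 TPM against 164 and 140 TPM, a ratio of 0.552 (log2 fold change -0.84, adjusted P = 0.00414). The calls of all 3 genes held in all 17 alternatives. Neither library of line label 79 overlapped the controls for them, but the same held for NFE2L2, NQO1, GCLM and SRXN1, which were not called. The share without overlap over all genes was not computed. SRXN1 had 89.3 and 90.2 TPM against 110 and 112 TPM, with an adjusted P of 0.0293 but a log2 fold change of -0.30, short of the fold change threshold. NQO1 had 328 and 309 TPM against 368 and 367 TPM (log2 fold change -0.21, adjusted P = 0.079). NFE2L2 did not move with them, at 59.1 and 64.0 TPM against 64.4 and 66.7 TPM, a log2 fold change of -0.09 with a 95% interval from -0.30 to 0.12.

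Line label 86 had none of the 9 genes called in either direction, beside 1.59% of all genes called up and 2.01% down. By adjusted P alone, NQO1 and SLC7A11 passed, against 1.96% of all genes. NQO1 had 498 and 486 TPM, above both controls at 368 and 367 TPM (log2 fold change 0.42, standard error 0.06, adjusted P = 0.0263, limma). SLC7A11 had 47.5 and 49.1 TPM, above 32.7 and 31.8 TPM in the controls, and its log2 fold change of 0.57 (adjusted P = 0.0278) lay just under the threshold. HMOX1 had 37.7 and 35.1 TPM, also above both controls, with a log2 fold change of 0.46 and an adjusted P of 0.0548. Its sign was thus the same as under line label 79, while that of SLC7A11 was not. GCLM was highest under this label, at 46.5 and 41.3 TPM against 39.4 and 38.4 TPM, but its log2 fold change of 0.17 had an adjusted P of 0.489.

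Line label 87, with the most U11, had NQO1 and SLC7A11 at levels that overlapped those of line label 86. None of the 9 was called, beside 2.08% of all genes called up and 3.05% down, and by adjusted P alone NQO1 and SLC7A11 passed, against 3.68% of all genes. NQO1 had 519 and 496 TPM (log2 fold change 0.46, standard error 0.06, adjusted P = 0.0121, limma). SLC7A11 had 44.7 and 49.3 TPM (log2 fold change 0.53, adjusted P = 0.0248). HMOX1 had 31.8 and 32.3 TPM, above both controls but with a log2 fold change of 0.28 and an adjusted P of 0.139. TXNRD1 had 616 and 668 TPM, above the controls at 243 and 479 TPM. Its log2 fold change of 0.91 had a standard error of 0.44 and an adjusted P of 0.356, and TXNRD1 was called on the unadjusted P for line labels 86 and 87 with the library series as a term. The difference between line labels 87 and 86 was -0.18 for HMOX1 (95% interval -0.38 to 0.02), 0.04 for NQO1 (-0.10 to 0.18) and -0.04 for SLC7A11 (-0.24 to 0.15). GCLM and SRXN1 were lower under line label 87 than under line label 86, by log2 differences of -0.34 and -0.22 that missed adjustment (adjusted P = 0.0831 and 0.101).

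The line labels differed from each other in 5 of the 9 genes by an F test between the 3 labels in the same fit, where the controls entered the estimate of the spread (limma, adjusted P under 0.05): SLC7A11, NQO1, HMOX1, AKR1B1 and SRXN1. Over all genes 16.0% passed this test. SLC7A11 was 1.24 higher on the log2 scale under line label 86 than under line label 79 (F test adjusted P = 0.000601), a ratio of 2.43. NQO1 was 0.67 higher under line label 87 than under line label 79 (adjusted P = 0.00182), a ratio of 1.59. AKR1B1 was 0.92 higher under line label 86 than under 79 (adjusted P = 0.00354), and SRXN1 0.39 higher (adjusted P = 0.0183). HMOX1 ran the other way, lower by a log2 difference of -0.84 under line label 87 than under 79 (adjusted P = 0.00315). NFE2L2 (adjusted P = 0.338), GCLC (0.563), GCLM (0.0602) and TXNRD1 (0.185) did not pass. SRXN1 no longer passed without either line label 79 library or without the first library of line label 86, which left 4 genes, while the other 4 passed with any single library left out.

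**Figure D3:**
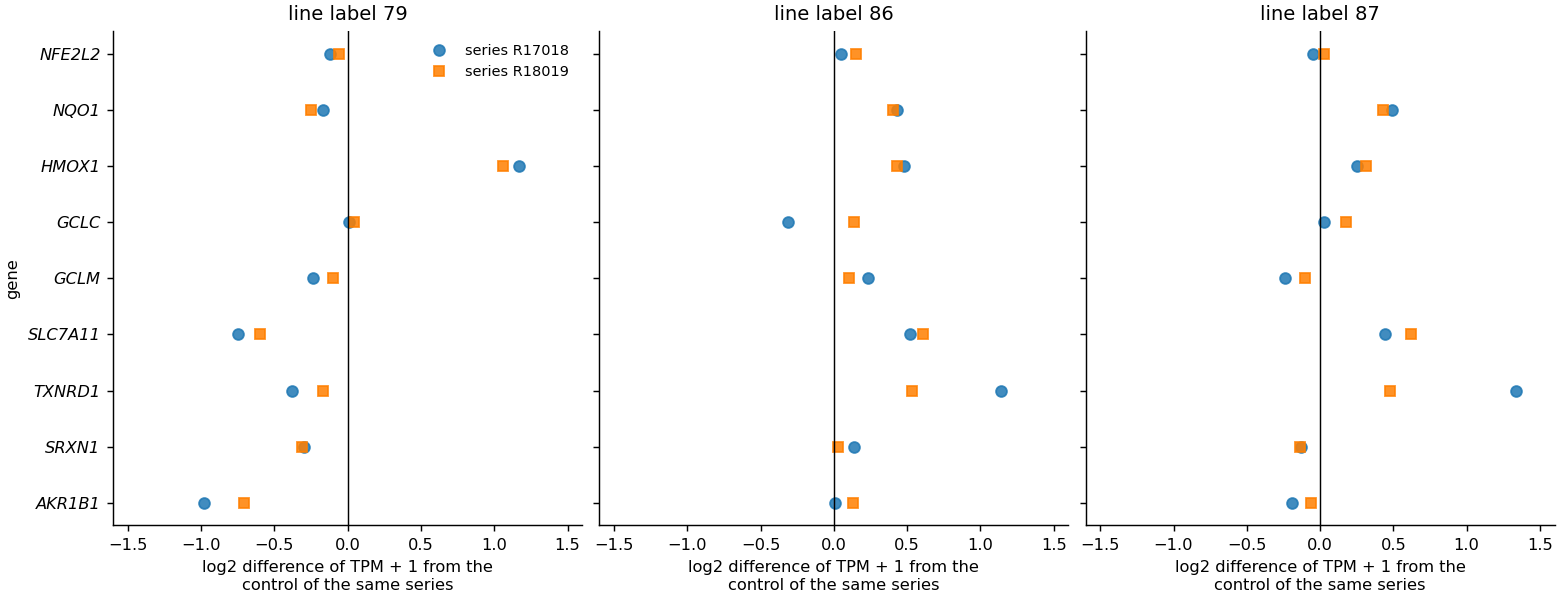
Log2 difference of TPM + 1 (horizontal axis) between each overexpression library and the control of its own library series, for the 9 genes tested and each line label. Circles are series R17018 and squares series R18019. HMOX1 under line label 79 was at 1.17 and 1.06, and GCLC under line label 86 is the point pair that lies farthest on both sides of 0, at -0.31 and 0.14.

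Within the library series, each line label kept its direction in both series for 8 of the 9 genes under line labels 86 and 87 and for all 9 under line label 79. The share over all genes was not computed, so these counts are not read as a result about the 9 genes. Some of the agreeing pairs were near 0, such as GCLC under line label 79 (0.01 and 0.04) and AKR1B1 under line label 86 (0.01 and 0.13). Under line label 79, HMOX1 differed from the control of its own series by 1.17 in R17018 and 1.06 in R18019, SLC7A11 by -0.75 and -0.60, and AKR1B1 by -0.98 and -0.71, on the log2 scale. NQO1 differed by 0.43 and 0.40 under line label 86 and by 0.49 and 0.43 under line label 87. SLC7A11 differed by 0.52 and 0.61 under line label 86 and by 0.44 and 0.62 under line label 87. TXNRD1 was higher in both series under line labels 86 (1.14 and 0.53) and 87 (1.34 and 0.48), and lower in both under line label 79 (-0.38 and -0.17). GCLC under line label 86 (-0.31 and 0.14) and NFE2L2 under line label 87 (-0.05 and 0.03) had opposite signs in the series.

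Between the comparisons, the effect of the knockout label differed from the mean effect of the overexpression label in SLC7A11, NQO1 and SRXN1 (limma over 12 libraries, adjusted P under 0.05), beside 11.9% of all genes. The effect on SLC7A11 was higher under the knockout label by 1.15 on the log2 scale (standard error 0.15, adjusted P = 0.00175), on SRXN1 by 0.41 (adjusted P = 0.0144), and on NQO1 the difference was -0.55 (adjusted P = 0.00933). HMOX1, called up in both comparisons, had a difference of -0.02 with a 95% interval from -0.25 to 0.22. The median difference over all genes was 0.121. SRXN1 did not pass with median ratio scaling or without either overexpression control, while SLC7A11 and NQO1 passed in all alternatives. The comparisons also differed in library series and in the share of protein-coding TPM, which cannot be told apart from the labels in this difference.

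**Figure D4:**
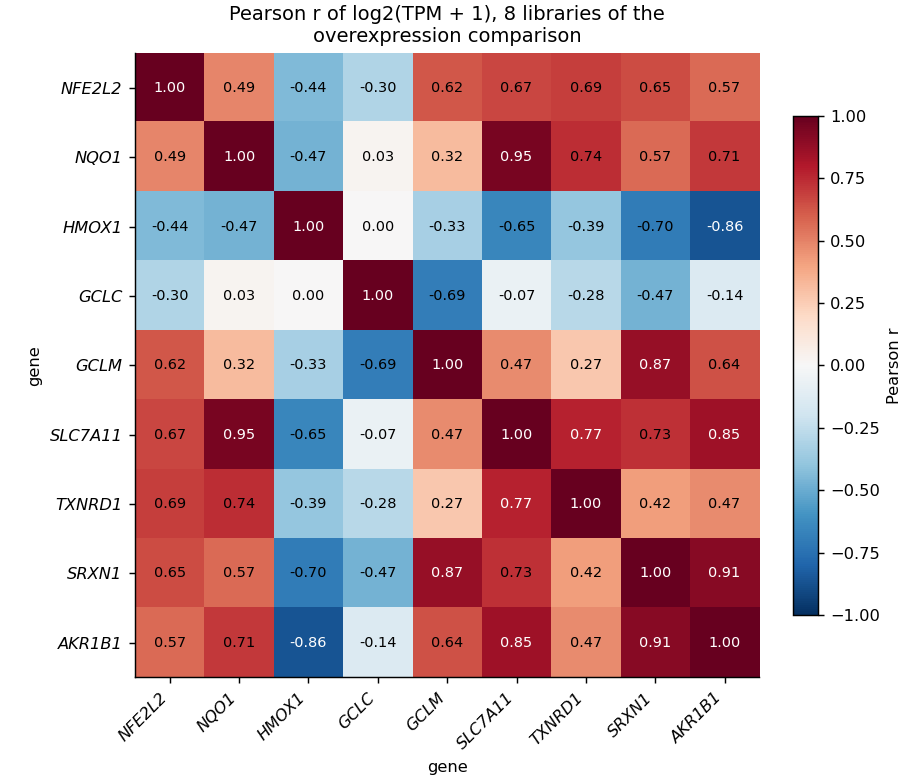
Pearson correlation of log2(TPM + 1) between the 9 genes over the 8 libraries of the overexpression comparison, with genes on both axes and color from -1 to 1. The row of HMOX1 holds values at or below 0 with every other gene, down to -0.86 with AKR1B1, and SLC7A11 and NQO1 are at 0.95.

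Across the 8 libraries of the overexpression comparison, SLC7A11 and NQO1 followed each other most closely (Pearson r = 0.95), then SRXN1 and AKR1B1 (0.91), GCLM and SRXN1 (0.87) and SLC7A11 and AKR1B1 (0.85). HMOX1 correlated with AKR1B1 at -0.86, with SRXN1 at -0.70 and with SLC7A11 at -0.65. GCLC and GCLM, the subunits of 1 enzyme, were at -0.69. NFE2L2 was at 0.49 with NQO1 and 0.67 with SLC7A11. These are descriptions over 8 libraries that share 4 groups and 2 library series, so the points are not independent. The mean standardized level of the 9 genes was lowest in the line label 79 libraries (-0.84 and -0.64) and highest in those of line label 86 (0.53 and 0.75). Among 11100 genes outside the lists with a mean of at least 5 TPM, the genes most like this mean profile were BTBD1 (r = 0.986), SNX9 (0.986), FBXL13 (0.983), SORT1 (0.981) and CPS1 (0.976). BTBD1 had 65.4 and 69.4 TPM under line label 79, 83.9 and 89.7 under line label 86, 77.6 and 82.3 under line label 87, and 77.7 and 77.0 in the controls.

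The rest of the pathway was taken from a list of 61 other genes (62 entries, since AKR1C3 had 2) of NRF2 regulation, glutathione, thioredoxin, NADPH, iron and heme, and drug metabolism, with SOD1, SOD2 and CAT beside them. In the knockout comparison 2 of 54 entries tested were called up and none was called down, beside 8.61% and 3.15% of all genes. Their median log2 fold change was 0.04. TXNIP, the thioredoxin-interacting protein that inhibits thioredoxin, had 55.0 and 51.2 TPM in the controls and 109 and 98.7 TPM under the knockout label (log2 fold change 0.96, adjusted P = 0.018, limma). MAFK, a small MAF partner of NRF2, had 9.07 and 6.25 TPM in the controls and 12.4 and 12.5 TPM under the label (log2 fold change 0.65, adjusted P = 0.0999). SLC3A2, the heavy chain that anchors SLC7A11 in the membrane, was looked up after the values of SLC7A11 were seen. It had 145 and 147 TPM in the controls and 100 and 111 TPM under the knockout label, opposite in direction to SLC7A11, with a log2 fold change of -0.46 (adjusted P = 0.0506). The regulators KEAP1 and BACH1 were also chosen after their values were seen. KEAP1 had a log2 fold change of -0.31 (adjusted P = 0.305) and BACH1 of 0.55 (adjusted P = 0.172), and neither was called.

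In the overexpression comparison GSTM3, a glutathione S-transferase, was the 1 of 55 entries called, beside 0.767% of all genes called up and 1.16% down, and the list's median log2 fold change was 0.11. GSTM3 had 13.6 and 12.3 TPM in the controls and 19.5 to 22.6 TPM in the 6 overexpression libraries, which did not overlap (log2 fold change 0.65, standard error 0.09, adjusted P = 0.0328, limma). It was called up under each line label, at 0.64, 0.73 and 0.59 for 79, 86 and 87. It has close paralogs in the GSTM cluster, so its reads may be shared with them. Under line label 79, 1 entry was called up and 4 down, beside 2.43% and 5.52% of all genes. Among the latter were the efflux transporter ABCC3 (1.82 TPM on average against 6.08, log2 fold change -1.33, adjusted P = 0.00917), NFE2L3, a relative of NRF2 (13.9 against 30.9 TPM, -1.11, adjusted P = 0.000982), and GPX8, a peroxidase of the endoplasmic reticulum (61.7 against 121 TPM, -1.0, adjusted P = 0.203). Under line label 86, 3 were called up and 1 down, beside 1.59% and 2.01% of all genes. CHAC1, which degrades glutathione, had 34.8 against 22.3 TPM (0.62, adjusted P = 0.0393), and UGDH, which makes UDP-glucuronate, had 124 against 81.9 TPM (0.59, adjusted P = 0.0445). TXNIP was the one called down, at 77.6 against 121 TPM (-0.64, adjusted P = 0.0085). Under line label 87, 2 were called up and none down, beside 2.08% and 3.05% of all genes. FTL, the light chain of ferritin, had 2806 and 2729 TPM against 1575 and 1579 TPM (0.81, adjusted P = 0.000825). FTL has processed pseudogenes, so its level is uncertain. By the F test between line labels, 18 of the 55 entries passed, beside the 16.0% of all genes. SLC3A2 was among them, at 830 and 674 TPM under line label 86, 430 and 411 under line label 87 and 375 and 342 under line label 79 (F test adjusted P = 0.00401).

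**Figure D5:**
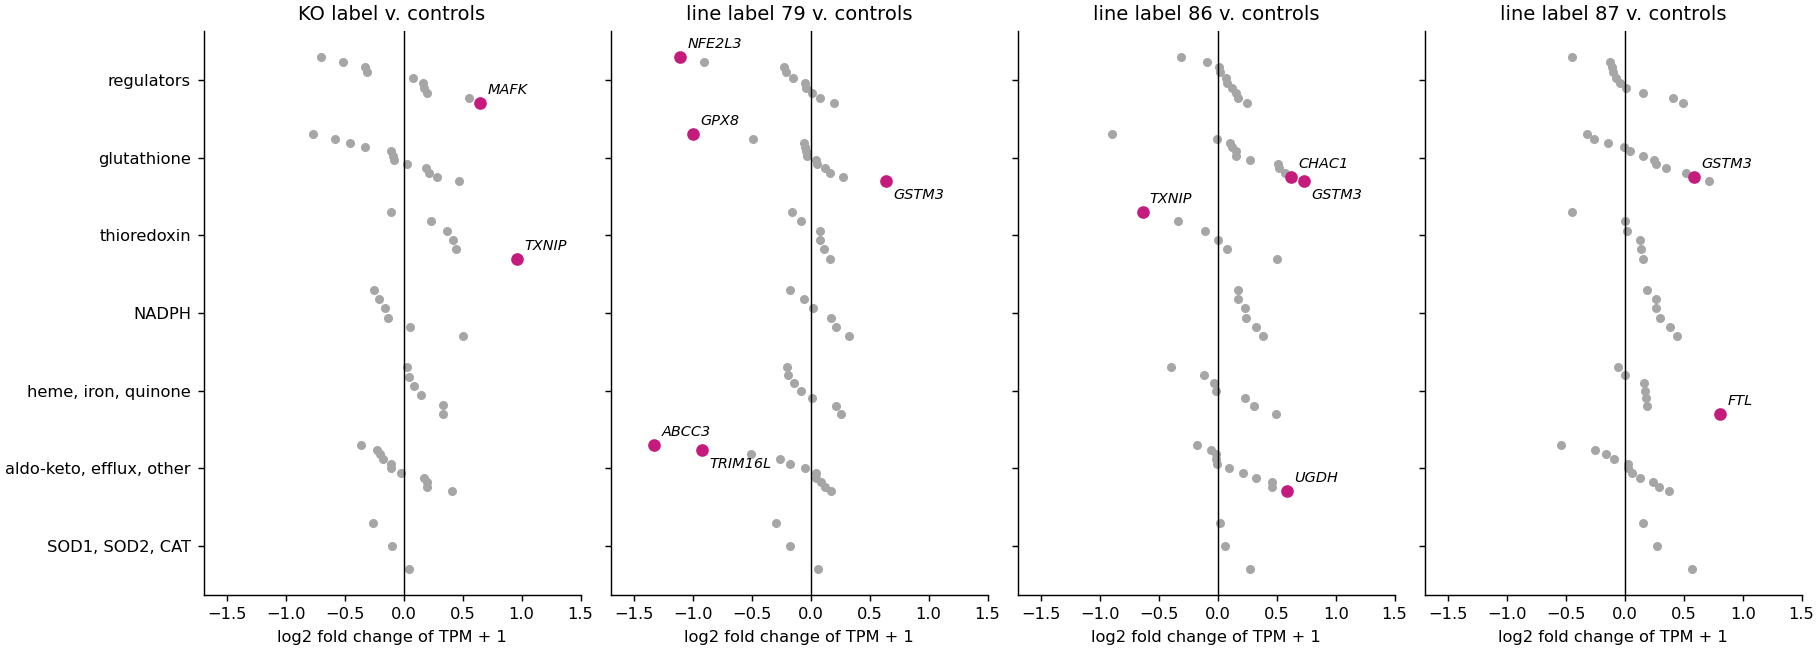
Log2 fold change of TPM + 1 (horizontal axis) of the other pathway genes tested, by role (vertical axis), for the knockout label and each line label against its controls. Each point is 1 entry, and larger named points passed the thresholds. TXNIP is at 0.96 under the knockout label and at -0.64 under line label 86, and ABCC3 is the lowest point at -1.33 under line label 79.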

How the data were processed

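Per the study's methods, reads (2 × 150, paired-end) were trimmed with fastp, aligned to hg38 with Hisat2 and summarized per gene with Stringtie, in versions not given in the sources used here. The labels name polyA RNA, the methods ribosomal RNA depletion. The authors deposited, per gene, Stringtie's coverage (read depth averaged over its bases), FPKM (per length and depth) and TPM (FPKM rescaled to 1 total per library), and no counts were used here, so the precision is the spread between libraries and no counting interval was computed. Coordinates are those of the deposited tables.

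Genes that reached 1 TPM in at least 2 libraries of a fit were tested on log2(TPM + 1) with limma 3.58.1 (lmFit and eBayes with trend) in R 4.3.3, after a test on simulated data. P-values were Benjamini-Hochberg adjusted over all genes tested. Fold changes on this scale understate those of low genes. Each comparison used its own libraries, the line labels 1 fit of 8 libraries, and the difference between comparisons all 12. U11 was compared by an exact permutation test. Tables and figures were made with matplotlib 3.10.9, scipy 1.17.1, pandas 2.3.3 and numpy 2.4.6 in Python 3.11.15.

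The genes and lists were chosen with earlier results of these data known. Named were all 10 genes, U11, other list genes called under the knockout or overexpression label, per line label the 3 with the largest change among genes called for a line label alone, and the 5 genes most like the mean profile. SLC3A2, KEAP1 and BACH1 were named after their values were seen. The alternatives were a pseudocount of 0.1, FPKM, other scalings and filters, no trend, replicate and series terms, line label means, adjusted P, and each library left out. Leaving out line label 79 was added after seeing the data.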

Additional observations from a re-analysis of the deposited data

Results flagged for a closer look

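Effects that differed between groups by a test of the difference itself (limma, adjusted P under 0.05) were as follows, in log2 units. Between line labels, SLC7A11 differed by 1.24 (86 minus 79), AKR1B1 by 0.92 (86 minus 79), HMOX1 by -0.84 (87 minus 79), NQO1 by 0.67 (87 minus 79) and SRXN1 by 0.39 (86 minus 79). Between the knockout label effect and the overexpression label effect, SLC7A11 differed by 1.15, NQO1 by -0.55 and SRXN1 by 0.41. The P-values of that difference left out the spread between line labels. None of the 6 overexpression libraries was flagged as standing apart from the others for the 10 genes or U11 (11 checked). The lowest TXNRD1 value, 186 TPM in library 1 of line label 79, was not flagged, though the others held 426 to 691 TPM.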

How the results depend on the processing

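Of 747 refits of single genes, 689 kept direction and side of the thresholds, 13 lost and 14 gained a call and 31 changed sign, where the cause was not tested. In the knockout comparison 1 gene (SLC7A11) was called with FPKM, median ratio scaling, quantile normalization and protein-coding genes rescaled, and 2 with the replicate block. In the overexpression comparison 0 were called with the library series term (replicate block), the mean of each line label, no filter and adjusted P, and 0 to 1 with 1 library left out. Line labels 86 and 87 had 1 (TXNRD1) with the series term (replicate block) and 0 to 1 with 1 library left out. That 1 was TXNRD1 without either line label 79 library or without control 2, and SLC7A11 without the first library of the line label itself or, for line label 86, without control 1. Without library 1 of line label 79, the overexpression comparison called TXNRD1 in place of HMOX1. Over all genes the numbers barely paired the libraries (correlation of deviations 0.0244 in the knockout comparison, 0.0704 to 0.150 in the overexpression comparison). For TXNRD1 and NFE2L2 the R18019 library was the higher one in every group of the overexpression comparison, and for NQO1 the lower one. The share of all genes with such a fixed order was not computed.

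Log2 fold changes that changed sign under another setting were those of GCLC in the knockout comparison (-0.04 with median ratio scaling, -0.05 with quantile normalization) and of NFE2L2 in the overexpression comparison (0.00 with FPKM, line label means and protein-coding genes rescaled, 0.01 with quantile normalization, 0.02 with median ratio scaling, 0.04 without line label 79) and for line label 87 (0.01 with median ratio scaling). With 1 library left out, the knockout comparison gave -0.60 to 0.54 for TXNRD1 and -0.20 to 0.16 for AKR1B1. The overexpression comparison gave -0.04 to 0.03 for NFE2L2, -0.09 to 0.12 for GCLC and 0.00 to 0.98 for TXNRD1. Line label 79 gave -0.08 to 0.13 for GCLC and -0.87 to 0.32 for TXNRD1, line label 86 -0.20 to 0.03 for GCLC and -0.04 to 0.18 for AKR1B1, and line label 87 -0.08 to 0.05 for NFE2L2 and 0.00 to 0.21 for GCLC. Where 1 library was left in a group, its spread was taken from the other groups of the fit.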
